A study of Mus musculus with 6 samples.

Results

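The collagen genes of reprogrammable cells were examined with and without Rnf20. Every row of the deposited count table whose symbol consists of Col, a number, the letter a and a second number was taken as a member, and 44 of 16982 genes met this rule. Of these, 11 were assigned to the fibrillar class, 6 to the basement membrane class, 6 to the beaded class, 9 to the fibril-associated class (FACIT) and 12 to a class of others. The cells were mouse embryonic fibroblasts (MEF) with the strain label C57BL/6, harvested at day 3 of reprogramming by retroviral OCT4, SOX2, KLF4 and C-MYC. There were 3 libraries labelled wild type (WT1, WT2 and WT3) and 3 labelled Rnf20-/- (KO1, KO2 and KO3), and the values of each group are given below in that order. By the stated methods, the knockout cells carried floxed Rnf20 alleles and Tamoxifen-cre, a ubiquitously expressed Cre recombinase that is switched on by 4-OH tamoxifen, and the deletion removes exons 2 to 4. The labels list all 6 cultures as untreated, and whether the WT cells carried the Cre or were given the drug is not stated, so the deletion and the drug cannot be told apart here. Infected cells were replated on mitomycin-C-treated MEF feeders during the study's protocol. Whether feeder RNA, itself from fibroblasts, entered these libraries is not stated either.

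Collagens are secreted proteins whose alpha chains wind around each other into a long helix. Fibrillar collagens are cut by proteases outside the cell and pack into the fibrils of skin, bone and cartilage, whereas type IV collagen forms the sheet-like network of basement membranes, type VI forms beaded microfilaments, and FACIT collagens sit on the surface of fibrils. Types I and III are the main fibrillar products of fibroblasts, and types II, IX, X and XI are known best from cartilage. The remaining genes encode short-chain network collagens, anchoring fibrils, the basement membrane collagens XV and XVIII, and collagens anchored in the plasma membrane.

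Each library held between 20545442 and 21746898 counts, so that 3 counts correspond to about 0.142 to 0.143 CPM (counts per 1000000 counts of the TMM-normalized library size). Rnf20 itself lay between 105.6 and 107.1 CPM in the WT libraries and between 16.4 and 18.7 CPM in the KO libraries, as the labels give the genotypes. KO3 stood apart from the other KO libraries. The chi-square of a pair of libraries, divided by the number of collagen genes, was 21.7 to 105 among the WT libraries and 469 between KO1 and KO2, but 2750 between KO1 and KO3 and 4880 between KO2 and KO3. Per gene over all genes tested, it was 6.04 to 8.92 among the WT libraries and 8.57 between KO1 and KO2. It was 92.4 between KO1 and KO3 and 101 between KO2 and KO3, so KO3 stood apart in the whole table and not in collagen genes alone. The main results that rest on KO3 are therefore also given without it. KO3 was singled out on these same collagen genes. The p-values without KO3, from 3 WT and 2 KO libraries, are thus no independent support. The labels do not state that replicates came from separate embryos or cultures, so p-values measure only the spread between these libraries.

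The comparison of Rnf20 knockout with WT asks which genes respond to the loss of RNF20, the ligase that places ubiquitin on histone H2B, at the onset of reprogramming. Of the 44 collagen genes, 41 had enough counts to be tested among 13386 genes. At an adjusted p under 0.01, which is what "rose" and "fell" mean below, Col11a2 rose and Col5a3, Col6a6 and Col26a1 fell by edgeR's quasi-likelihood test, with p-values adjusted over all genes after Benjamini and Hochberg. These 4 genes are 9.76% of the collagen genes tested, beside 9.88% of all genes tested, of which 4.98% rose and 4.89% fell. When a log2 fold change beyond 1 in size and an FPKM above 1 on average in either genotype were also required, Col11a2 was called higher (1.50% of all genes) and Col26a1 lower (2.08% of all genes), with 3.59% of all genes called in total. The fold change of Col11a2 lay at the limit of 1 and was 0.94 with library totals alone and 0.99 with no filter on low counts, so that the call was then lost. Relaxing the limit to an adjusted p under 0.05 added Col5a2, Col4a4, Col9a3, Col8a1 and Col28a1 on the higher side and Col16a1, Col25a1 and Col8a2 on the lower side, which brought the collagen genes to 29.3% beside 33.0% of all genes (16.4% higher and 16.6% lower). Each of these 8 genes missed 0.05 in at least 1 of the fits without a library other than KO3. The collagen genes thus passed the test at about the rate of the whole table. In bulk RNA, fewer cells of one type and less RNA per cell cannot be told apart.

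All 4 calls were lost when 1 library other than KO3 was left out. When any one of WT1, WT2, WT3, KO1 or KO2 was left out, Col11a2, Col5a3, Col6a6 and Col26a1 had adjusted p-values between 0.0145 and 0.0461 by the same edgeR test, and between 0.00736% and 1.10% of all genes then passed 0.01. Leaving out KO3 gave more calls, and 9 collagen genes rose and 7 fell, 38.1% of 42 tested beside 33.2% of all genes (16.4% rose and 16.7% fell). Those higher were Col10a1, Col11a1, Col11a2, Col14a1, Col18a1, Col2a1, Col5a1, Col5a2 and Col8a1, and those lower were Col15a1, Col16a1, Col25a1, Col26a1, Col5a3, Col6a6 and Col8a2.

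Among the fibrillar genes, the genes that passed the test were minor chains. Col11a2 encodes the alpha2 chain of type XI collagen, a thin-fibril collagen of cartilage, and lies at chr17:34039437-34066685 on the plus strand of GRCm38. It had 6.23, 6.12 and 7.73 CPM in the WT libraries and 15.6, 12.7 and 12 CPM in the KO libraries. Every KO library lay above every WT library, and the log2 fold change was 1.0 ± 0.16 (SE, n = 3 and 3, adjusted p = 0.0074 by edgeR's quasi-likelihood test). Col5a3, the alpha3 chain of type V collagen, lies at chr9:20770050-20815067 on the minus strand. Its levels were 89.4, 70.7 and 81.9 CPM in WT against 47.8, 48.3 and 47.7 CPM in KO. The KO libraries were close to each other and below all WT libraries, KO3 included, with a log2 fold change of -0.75 ± 0.098 (SE, n = 3 and 3, adjusted p = 0.00456 by edgeR's quasi-likelihood test).

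To show the sequence in front of the genes that changed, the bases upstream of the RefSeq starts (GRCm38.p6) are printed for Col11a2, Col5a3 and Col6a6, a gene of the beaded class described further on, while Col26a1 was not matched in the RefSeq table. Each runs 5′ to 3′ on the strand of its gene, and capitals mark matches on either strand to the CCAAT box, to TATAAA as the core of the TATA box, or to GGGCGG as the core of the GC box. The windows are chr17:34038888-34039137 (plus strand) for Col11a2, chr9:20815068-20815317 (minus strand) for Col5a3 and chr9:105828161-105828335 (minus strand) for Col6a6, where the 75 bases next to the start were left out since they lie in an annotated exon. The Col11a2 window does not reach the gene start given above (34039437), because RefSeq places the start further upstream.
Col11a2: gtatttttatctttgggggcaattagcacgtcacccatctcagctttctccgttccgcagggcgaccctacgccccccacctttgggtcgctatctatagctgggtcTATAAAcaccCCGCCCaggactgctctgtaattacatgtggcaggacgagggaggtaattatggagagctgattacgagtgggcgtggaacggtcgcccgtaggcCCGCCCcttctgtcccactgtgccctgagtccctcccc
Col5a3: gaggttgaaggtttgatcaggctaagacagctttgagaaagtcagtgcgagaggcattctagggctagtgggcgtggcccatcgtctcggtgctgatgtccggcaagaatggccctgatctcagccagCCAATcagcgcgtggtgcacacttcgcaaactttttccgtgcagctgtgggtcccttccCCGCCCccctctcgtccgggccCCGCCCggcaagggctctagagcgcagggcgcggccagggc
Col6a6: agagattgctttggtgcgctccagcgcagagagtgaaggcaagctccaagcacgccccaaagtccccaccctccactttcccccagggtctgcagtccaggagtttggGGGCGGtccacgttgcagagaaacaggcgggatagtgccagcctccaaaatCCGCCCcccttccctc
Col11a2 has 1 TATAAA and 2 GGGCGG matches, Col5a3 has 1 CCAAT and 2 GGGCGG matches, and Col6a6 has 2 GGGCGG matches. In the 250 bases upstream of 32851 RefSeq starts, 33.8% hold CCAAT, 12.4% hold TATAAA and 32.7% hold GGGCGG. In 38 such windows of 35 collagen genes the shares are 34.2%, 13.2% and 57.9%. The matches are letters in a window and describe no binding.

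The most abundant collagen genes were those of the major fibrils, and none of them passed the test. By mean CPM per kilobase of gene length over the 6 libraries, a scale on which genes can be compared, Col1a1 (1706) ranked 9, Col1a2 (1439) ranked 16 and Col3a1 (911) ranked 55 among 16982 genes, and they were followed by Col5a2 (303), Col5a1 (278), Col4a1 (225), Col6a1 (213), Col4a2 (203), Col12a1 (133) and Col6a2 (114). Col1a1, the alpha1 chain of type I collagen, had 10572, 9282 and 10313 CPM in WT and 10401, 13076 and 7067 CPM in KO. KO2 was above and KO3 below all WT libraries, and the log2 fold change was 0.018 ± 0.222 (SE). Col1a2, its alpha2 partner, had 8586, 8738 and 9003 CPM in WT and 6706, 8779 and 4376 CPM in KO. Col3a1, the chain of type III collagen, had 5933, 5255 and 5944 CPM in WT and 5023, 6854 and 1899 CPM in KO, so that KO3 held 33.3% of the WT mean. The levels of both genes overlapped between the genotypes, with log2 fold changes of -0.41 ± 0.24 and -0.31 ± 0.41 (SE).

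Type V and type XI chains set the diameter of fibrils, and 4 of the 5 genes named Col5 or Col11 were higher than every WT library in KO1 and KO2, as were 17 of 41 collagen genes and 4465 of 13386 genes in all. Col5a2 had 1638, 1398 and 1621 CPM in WT and 2599, 2877 and 2071 CPM in KO. All KO libraries were above all WT libraries, and its log2 fold change of 0.70 ± 0.14 (SE, n = 3 and 3) had an adjusted p of 0.0139 by edgeR's quasi-likelihood test, short of 0.01. Col5a1 had 2112, 1888 and 2089 CPM in WT and 3001, 3928 and 1499 CPM in KO, and Col11a1 had 702, 633 and 669 CPM in WT and 1228, 1436 and 408 CPM in KO. For both genes KO1 and KO2 stood above and KO3 below the whole WT range. With KO3 the log2 fold changes were 0.47 ± 0.32 and 0.62 ± 0.41 (SE, adjusted p = 0.285 and 0.281 by edgeR's test). Without KO3 (n = 3 and 2) they were 0.77 and 1.0, with adjusted p = 0.000182 and 5e-06 by edgeR's test, in a fit chosen after seeing these genes. Col2a1, the cartilage fibril collagen, went the same way at a lower level, with 73.9, 62.8 and 71.7 CPM in WT and 82.4, 115 and 28.8 CPM in KO. Col27a1 (26.4 to 29.6 CPM in WT, 14.9 to 25.1 CPM in KO) and Col24a1 (7.56 to 12.2 CPM in WT, 5.68 to 13.6 CPM in KO) had log2 fold changes of -0.44 and -0.15 and did not pass.

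**Figure D1:**
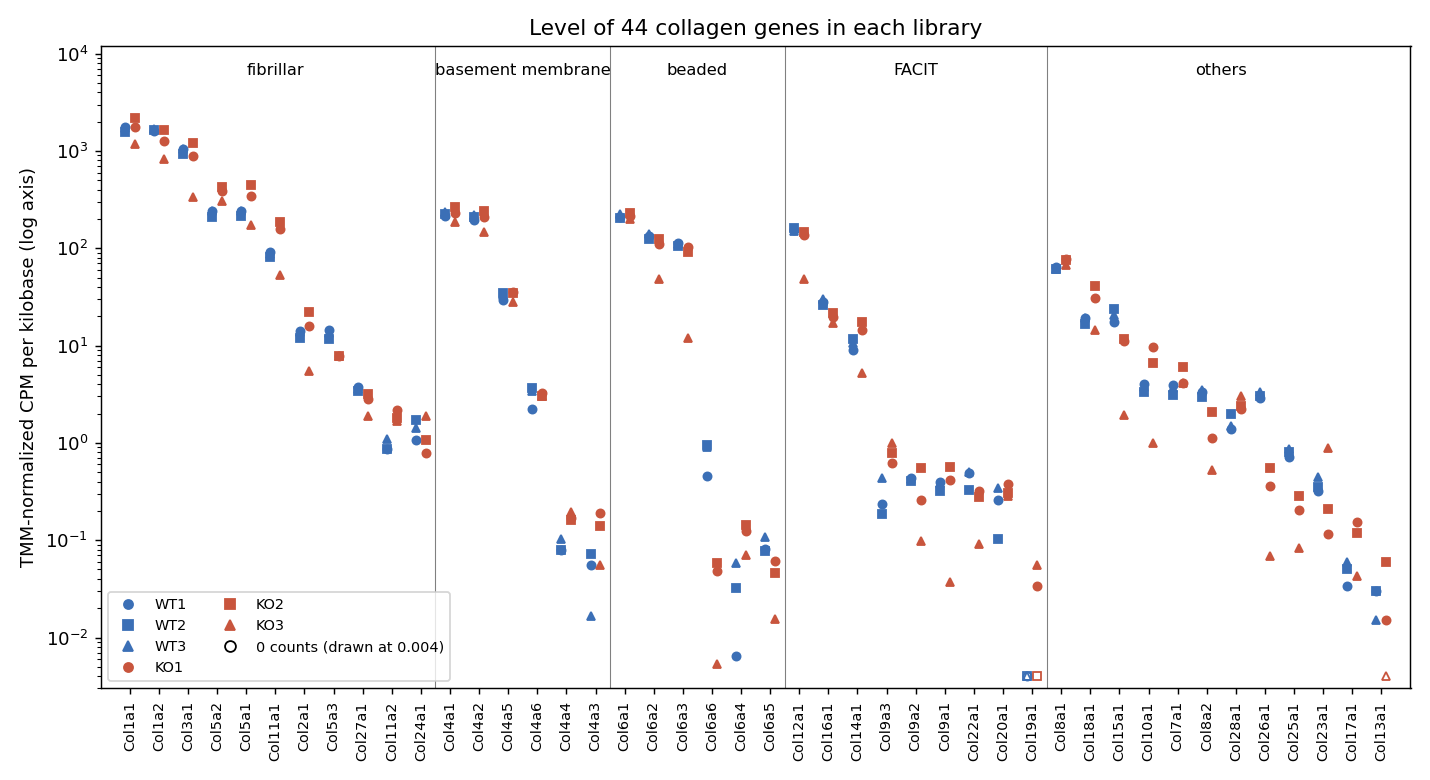
Level of each of the 44 collagen genes in the 6 libraries, as TMM-normalized CPM per kilobase on a log axis, grouped by class and ordered by mean level within a class (blue, WT; red, KO; circles, squares and triangles, replicates 1 to 3; open symbols, 0 counts). The levels run from 1706 CPM per kilobase for Col1a1 to 0.0149 for Col19a1, and the KO3 triangle is often the lowest symbol of its gene.

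In the basement membrane class no gene passed 0.01. Col4a1 and Col4a2, the chains of the common type IV collagen, are neighbours on chromosome 8 whose annotated ends overlap by 22 bases head to head. Col4a1 had 1407, 1483 and 1545 CPM in WT and 1530.4, 1744 and 1235 CPM in KO, and Col4a2 had 1256, 1354 and 1412 CPM in WT and 1355, 1552 and 947 CPM in KO. In both, KO2 was the highest and KO3 the lowest of the 6 libraries, with log2 fold changes of 0.024 ± 0.134 and -0.062 ± 0.178 (SE). A second head-to-head pair, Col4a5 and Col4a6 on chromosome X, starts 1308 bases apart. Col4a5 had 192, 224 and 216 CPM in WT and 234, 226 and 185 CPM in KO, and Col4a6 had 15.1, 25.0 and 23.5 CPM in WT and 22.1, 20.8 and 20.6 CPM in KO. The Col4a6 values of the KO libraries lay inside the WT range.

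Col4a3 and Col4a4, chains of the type IV collagen of mature kidney filters, are the third head-to-head pair, 71 bases apart on chromosome 1, and were near the limit of detection. Col4a4 had 17, 17 and 22 counts in WT and 36, 35 and 42 counts in KO, or 0.808, 0.807 and 1.04 CPM against 1.72, 1.66 and 2.0 CPM. The groups did not overlap, and the log2 fold change was 1.01 ± 0.27 (SE, n = 3 and 3, adjusted p = 0.0293 by edgeR's quasi-likelihood test). When 1 library other than KO3 was left out, its adjusted p-values by the same test were 0.0600 to 0.105. Col4a3 had 10, 13 and 3 counts in WT and 34, 25 and 10 counts in KO, which gave the largest fitted difference of its class, 1.40 ± 0.63 (SE, adjusted p = 0.130 by edgeR's test). Its KO3 value lay within the WT range.

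Among the beaded genes, Col6a6 fell the most of all collagen genes. It encodes an alpha6 chain of type VI collagen and lies at chr9:105687809-105828160 on the minus strand, the last of a row of genes in which Col6a4, Col6a5 and Col6a6 follow each other at distances of 28810 and 27917 bases. It had 86, 177 and 172 counts in WT and 9, 11 and 1 in KO, or 4.09, 8.40 and 8.16 CPM against 0.430, 0.522 and 0.0476 CPM. Every KO library was far below every WT library, and the log2 fold change was -4.34 ± 0.61 (SE, n = 3 and 3, adjusted p = 0.00559 by edgeR's quasi-likelihood test). A mean FPKM of 0.672 in WT kept it from being called by the study's rule as applied here to the edgeR fit. Its neighbours did not pass: Col6a5 had 16, 15 and 21 counts in WT and 12, 9 and 3 in KO, and Col6a4 had 1, 5 and 9 counts in WT and 19, 22 and 11 in KO. Along this row of genes, the KO libraries thus held more counts than WT at Col6a4 and fewer at Col6a5 and Col6a6, with fitted log2 fold changes of 1.77 ± 0.64 and -1.10 ± 0.50 (SE) for Col6a4 and Col6a5.

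The abundant type VI chains differed from each other most in KO3, and none of them passed the test. Col6a1 had 854, 844 and 917 CPM in WT and 869, 940.0 and 818 CPM in KO (log2 fold change 0.007 ± 0.084, SE). Col6a2, its neighbour on chromosome 10, had 619.6, 586 and 647 CPM in WT and 514, 576 and 227 CPM in KO. Col6a3, which joins both in the same microfilament, had 1234, 1168 and 1208 CPM in WT and 1142, 997 and 132 CPM in KO. KO3 held 36.7% of the WT mean for Col6a2 and 11% for Col6a3, while KO1 and KO2 were just below the WT libraries. The log2 fold changes of -0.49 ± 0.32 and -0.67 ± 0.66 (SE) did not pass, and without KO3 they were -0.18 and -0.17.

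In the FACIT class no gene passed 0.01. Col12a1, a large collagen on the surface of type I fibrils and the most abundant of the class, had 1781, 1868 and 1724 CPM in WT and 1582, 1696 and 556 CPM in KO. Col16a1 had 159, 149.9 and 171 CPM in WT and 112, 124 and 96.4 CPM in KO, below WT in every library, with a log2 fold change of -0.53 ± 0.11 (SE, n = 3 and 3, adjusted p = 0.0139 by edgeR's quasi-likelihood test). Without KO3 it was -0.44 and the adjusted p was 0.000644 by the same test. Col14a1 had 58.7, 76.3 and 68.7 CPM in WT and 93.8, 112 and 33.6 CPM in KO, with KO3 below and the other KO libraries above WT. Col9a3, a chain of the cartilage collagen IX, was low and had 15, 12 and 28 counts in WT and 40, 51 and 64 in KO (0.713, 0.570 and 1.33 CPM against 1.91, 2.42 and 3.05 CPM). Its log2 fold change of 1.49 ± 0.39 (SE, n = 3 and 3, adjusted p = 0.0286 by edgeR's quasi-likelihood test) is uncertain because Col9a3 overlaps Tcfl5 on the opposite strand and the use of strand in counting is not stated. The partner chains Col9a1 and Col9a2 did not go with it, at 32, 26 and 31 against 33, 46 and 3 counts and at 27, 25 and 26 against 16, 34 and 6 counts. Col22a1 (2.90 to 4.46 CPM in WT, 0.810 to 2.82 CPM in KO) and Col20a1 (0.427 to 1.42 CPM in WT, 1.19 to 1.58 CPM in KO) did not pass either, and Col19a1 was not tested with 0 counts in 4 libraries and 3 and 5 counts in KO1 and KO3.

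The class of others held the second largest fall. Col26a1, a secreted collagen known from developing testis and ovary, lies at chr5:136741759-136883209 on the minus strand and had 168, 179 and 197 counts in WT and 21, 32 and 4 in KO. In CPM these were 7.99, 8.5 and 9.35 in WT and 1.0, 1.52 and 0.191 in KO. The groups were far apart, with a log2 fold change of -3.24 ± 0.55 (SE, n = 3 and 3, adjusted p = 0.00827 by edgeR's quasi-likelihood test). Col25a1, a membrane-anchored collagen known from neurons and muscle, had 5.32, 6.03 and 6.41 CPM in WT and 1.53, 2.14 and 0.619 CPM in KO. It had the same order of libraries and a log2 fold change of -2.05 ± 0.41 (SE, n = 3 and 3), but its adjusted p of 0.0130 by edgeR's quasi-likelihood test was short of 0.01.

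The partners of type VIII collagen, a short-chain collagen of vessel walls and of the cornea, differed from WT on opposite sides. Col8a1 had 325, 311 and 311 CPM in WT and 392, 390.0 and 347 CPM in KO (log2 fold change 0.25 ± 0.075, SE, adjusted p = 0.0421 by edgeR's test), and Col8a2 had 16.1, 14.4 and 17 CPM in WT and 5.49, 10.2 and 2.52 CPM in KO (-1.39 ± 0.43, SE, adjusted p = 0.0488 by edgeR's test). The groups did not overlap for either gene. Col28a1, a collagen with von Willebrand factor domains, had 6.99, 10.2 and 7.59 CPM in WT and 11.4, 12.1 and 15.5 CPM in KO, and KO3 was here the highest library (0.65 ± 0.19, SE, adjusted p = 0.0410 by edgeR's test). When 1 library other than KO3 was left out, Col8a1 passed 0.05 in none of the 5 fits, with adjusted p-values of 0.105 to 0.142 by edgeR's test, and those of Col28a1 and Col8a2 reached 0.140.

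The basement membrane collagens XV and XVIII, which are close relatives, differed in KO1 and KO2. Col15a1 had 89.3, 122 and 107 CPM in WT and 57.0, 60.2 and 9.95 CPM in KO, below WT throughout (-1.33 ± 0.58, SE), and leaving out KO3 gave -0.86 (adjusted p = 0.000178 by edgeR's test). Col18a1 had 127, 109 and 128 CPM in WT and 205, 269 and 96.5 CPM in KO (0.65 ± 0.34, SE), and leaving out KO3 gave 0.97 (adjusted p = 5.2e-05 by edgeR's test). Col10a1, the collagen of hypertrophic cartilage, had 12.5, 10.4 and 11.7 CPM in WT and 30.3, 20.8 and 3.10 CPM in KO, a span of the KO libraries to both sides of WT. It lies on the opposite strand of Nt5dc1, so its counts share the doubt about strand. Col7a1, the collagen of anchoring fibrils in skin, had 29.0 to 36.3 CPM in WT and 38.0 to 55.8 CPM in KO without passing. Col23a1, a membrane-anchored collagen, was the reverse of the usual pattern, with 1.85, 2.04 and 2.56 CPM in WT and 0.668, 1.19 and 5.05 CPM in KO. Its log2 fold change was 0.096 with KO3 and -1.21 without it. Col17a1 (4, 6 and 7 counts in WT, 18, 14 and 5 in KO) and Col13a1 (5 counts in all WT libraries and 5 in all KO libraries) had too few counts to be tested.

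**Figure D2:**
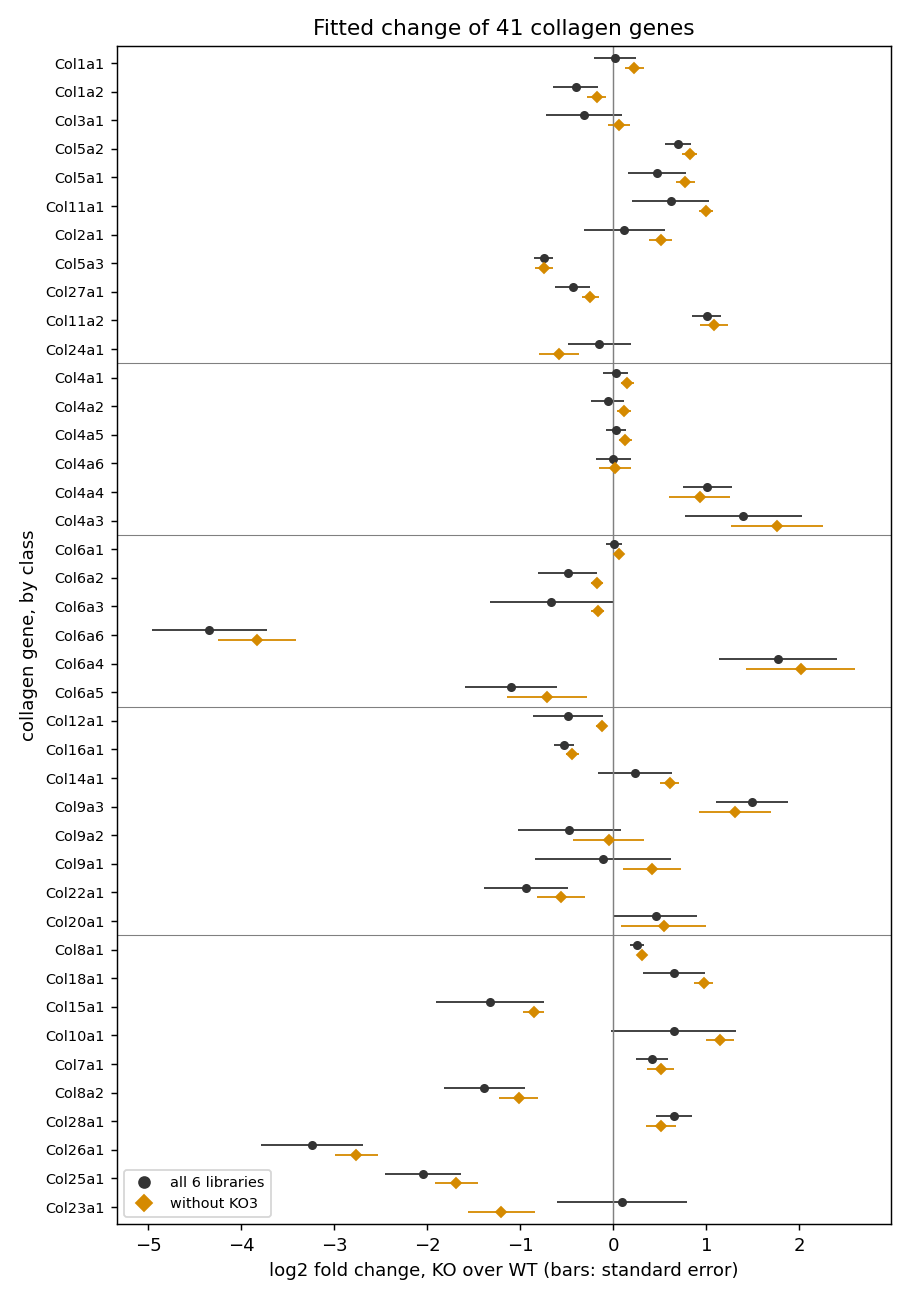
Fitted log2 fold change of KO over WT for the 41 tested collagen genes, by class, with all 6 libraries (black circles) and without KO3 (orange diamonds), with bars for 1 standard error. Col6a6 lies at -4.34 and Col26a1 at -3.24 with all libraries, the abundant Col1a1 lies at 0.018, and for Col11a1, Col18a1 and Col10a1 the diamond lies to the right of the circle.

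The collagen genes as a group had a median log2 fold change of 0.0070 (all genes tested, -0.00032), with 21 genes above 0 and 20 below. This balance hid a difference between the KO libraries. Against the WT mean, the median of the 41 genes was 0.051 in KO1, 0.24 in KO2 and -0.71 in KO3 on the log2 scale, an SD of 0.50 across the KO libraries. The medians of all genes tested lay between -0.016 and -0.0030, but the TMM scaling keeps these near 0 also where many single genes differ, as they did in KO3. KO3 was the lowest of the 6 libraries for 28 of 41 collagen genes (68.3%) beside 34.0% of all genes, and the highest for 5 (12.2%) beside 33.1%. In 8 collagen genes (19.5%) KO1 and KO2 lay above and KO3 below all WT libraries, which 3.98% of all genes did. These were Col11a1, Col5a1, Col2a1, Col14a1, Col18a1, Col10a1, Col9a1 and Col4a5. The libraries of the genotypes did not overlap for 21 collagen genes, 8 higher and 13 lower (51.2%), beside 54.8% of all genes (26.6% higher and 28.2% lower).

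**Figure D3:**
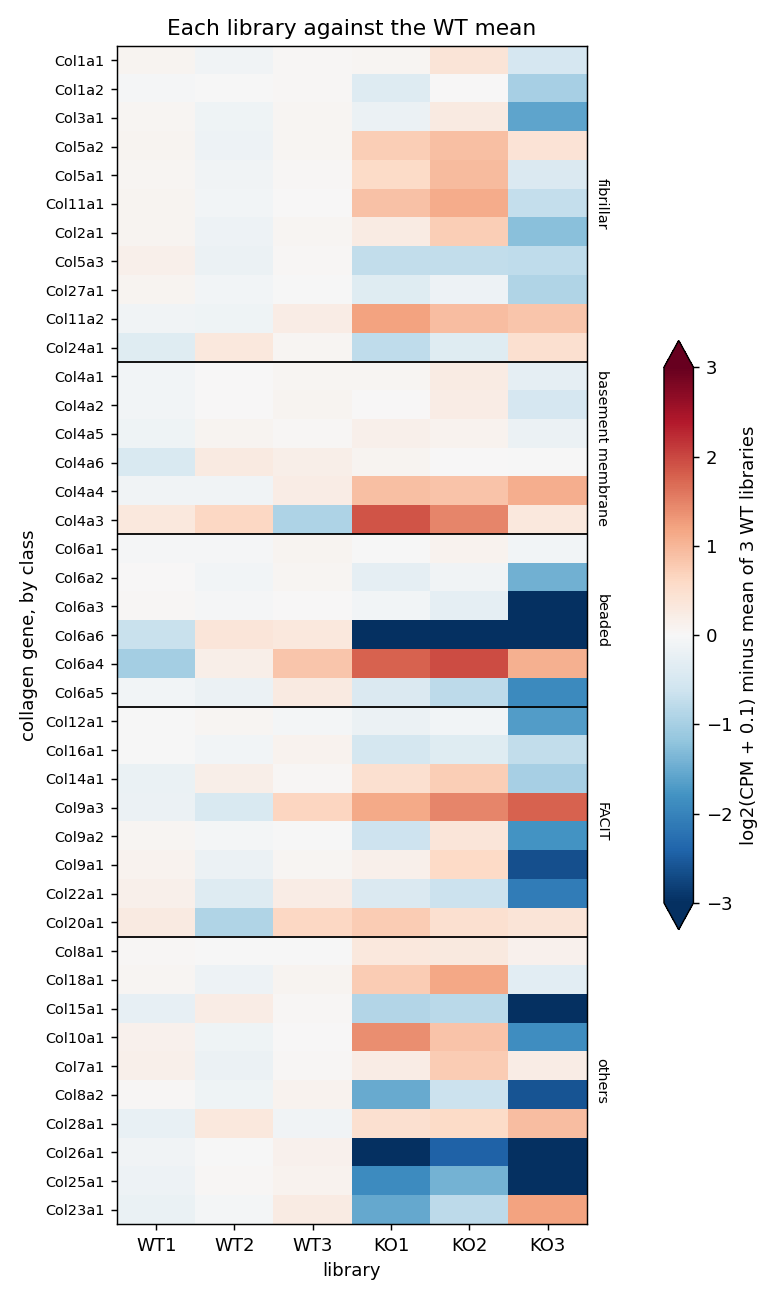
Each library against the mean of the 3 WT libraries for the 41 tested collagen genes, as a difference of log2(CPM + 0.1), by class (red, higher; blue, lower; values beyond 3 are drawn at the end of the scale). The KO3 column is mostly blue, with 28 genes at their lowest there, whereas KO1 and KO2 hold red and blue genes side by side.

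In total, the collagen genes took 3.89%, 3.65% and 3.92% of all counts in WT and 3.70%, 4.45% and 2.17% in KO. The means were 3.82% ± 0.15 and 3.44% ± 1.16 (SD, n = 3 each), and the difference was within the spread of the KO libraries (two-sided exact permutation test, p = 0.8, where 3 against 3 libraries cannot go below 0.1). Without KO3 the difference changed sign, from -0.38 to 0.26 percentage points. Fibrillar genes made up most of these counts, with 3.05%, 2.79% and 3.04% in WT and 2.88%, 3.60% and 1.71% in KO. The beaded class had 0.278%, 0.266% and 0.284% in WT and 0.250%, 0.244% and 0.115% in KO, and the FACIT class had 0.206%, 0.214% and 0.201% against 0.178%, 0.188% and 0.0676%. These were the classes in which every KO library lay below every WT library (exact permutation p = 0.1 for each, the smallest this design allows). The sets tested were the 5 classes, the total and the set of Col1a1, Col1a2 and Col3a1. Most of the FACIT counts were those of Col12a1, which did not pass the edgeR test. It had a mean of 1791 CPM in WT, beside 1973 to 2100 CPM for the class. Of 8 FACIT genes tested, 3 had a log2 fold change above 0 and 5 below. As a share of counts per kilobase the FACIT class stayed separated, but the beaded class overlapped, with 0.122%, 0.115% and 0.124% in WT and 0.116%, 0.119% and 0.0640% in KO (exact permutation p = 0.3). Basement membrane genes took 0.294% to 0.326% in WT and 0.234% to 0.343% in KO, and the others took 0.0636% to 0.0647% and 0.0508% to 0.0798%. Within the collagen counts, Col1a1, Col1a2 and Col3a1 together made up 66.1%, 65.0% and 65.7% in WT and 59.3%, 62.4% and 60.1% in KO, so this share was lower in all KO libraries, KO3 being in the middle. It was not tested, and the libraries of 54.8% of all single genes did not overlap either. Of all counts, the same genes took 2.57%, 2.37% and 2.58% in WT and 2.19%, 2.78% and 1.31% in KO, which overlapped (exact permutation p = 0.6).

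**Figure D4:**
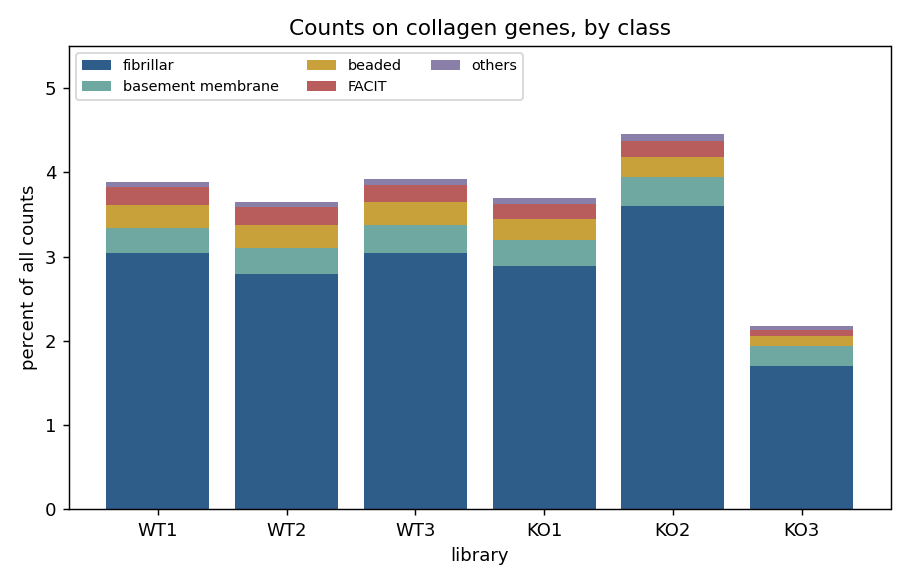
Counts on collagen genes as a percentage of all counts in each of the 6 libraries, stacked by class. WT1 to WT3 reach 3.65% to 3.92%, KO2 is the highest at 4.45% and KO3 the lowest at 2.17%, with the fibrillar genes as the largest layer in each bar.

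Chains that assemble in the same molecule or fibril were then compared within each library, where the ratio of counts per kilobase does not depend on the scaling of libraries. For type I collagen the ratio of Col1a1 to Col1a2 was 1.11, 0.958 and 1.03 in WT and 1.40, 1.34 and 1.46 in KO. KO3 was here close to the other KO libraries, and the mean log2 ratio was 0.44 higher in KO (0.045 ± 0.107 against 0.484 ± 0.058, SD, n = 3 each). Col8a1 to Col8a2 was 19.1, 20.5 and 17.4 in WT and 67.8, 36.4 and 131 in KO, a log2 difference of 1.86. Col6a1 to Col6a2 was 1.56, 1.63 and 1.61 in WT and 1.92, 1.85 and 4.10 in KO (log2 difference 0.61), and Col6a3 to Col6a1 was 0.539, 0.516 and 0.491 in WT and 0.490, 0.395 and 0.0602 in KO (-1.18). The ratio of Col3a1 to Col1a1 was 0.589, 0.594 and 0.605 in WT and 0.507, 0.550 and 0.282 in KO (-0.48), and that of Col4a1 to Col4a2 was 1.09, 1.07 and 1.07 in WT and 1.10, 1.10 and 1.27 in KO (0.10). In these 6 of 9 pairs the libraries of the genotypes did not overlap, and each had an exact permutation p of 0.1, the smallest possible, and 0.15 after Benjamini-Hochberg adjustment over 9 pairs. Among single genes, 54.8% of all genes tested did not overlap, and no such share was computed for ratios of other genes. Some of these pairs share Col1a1 or Col6a1, so they are not separate results. Without KO3 the log2 differences were -0.23 for Col6a3 to Col6a1, -0.17 for Col3a1 to Col1a1, 0.24 for Col6a1 to Col6a2 and 0.030 for Col4a1 to Col4a2, so these pairs rested mostly on KO3, whereas they were 0.41 for Col1a1 to Col1a2 and 1.39 for Col8a1 to Col8a2. For Col5a1 to Col5a2 (0.994, 1.04 and 0.994 in WT, 0.890, 1.05 and 0.558 in KO), Col11a1 to Col5a1 (0.376, 0.379 and 0.362 in WT, 0.463, 0.413 and 0.308 in KO) and Col4a5 to Col4a6 (13.2, 9.36 and 9.60 in WT, 11.1, 11.4 and 9.34 in KO) the genotypes overlapped.

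**Figure D5:**
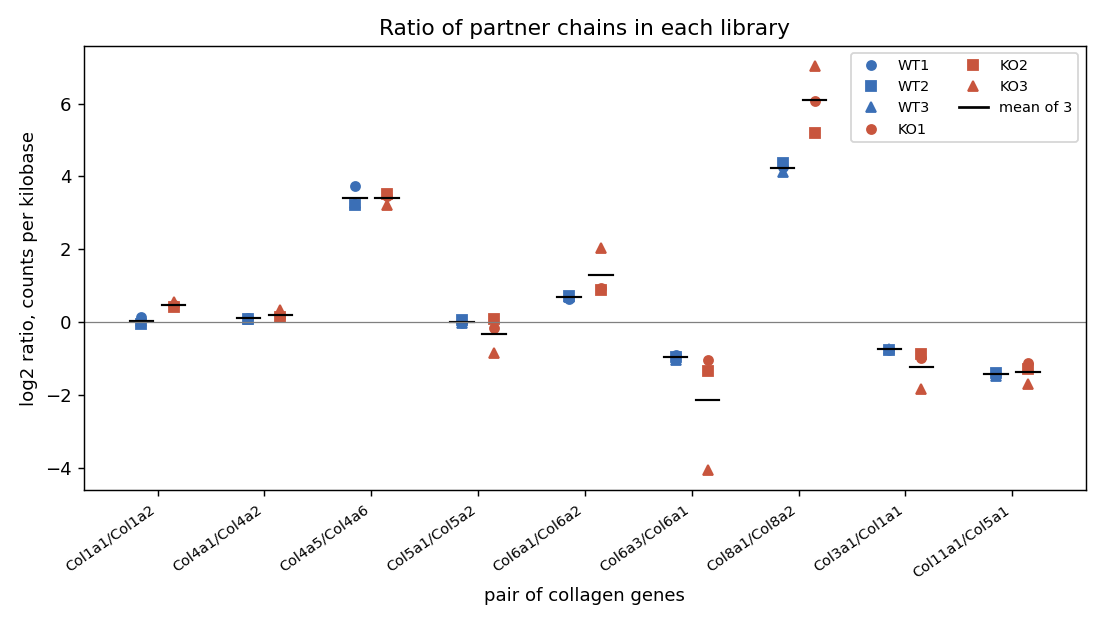
Log2 ratio of counts per kilobase for 9 pairs of partner chains in each library (blue, WT; red, KO; symbols, replicates; black line, mean of 3). The Col1a1 to Col1a2 ratio is the one in which all KO libraries lie close together above WT, at 1.34 to 1.46 on the linear scale, while in the Col6a3 to Col6a1 pair KO3 lies far from the others at 0.0602.

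Genes that act on collagen chains were examined next. Of 20 genes for modification and folding in the endoplasmic reticulum, 1 rose and 1 fell, beside 4.98% and 4.89% of all genes, with a median log2 fold change of 0.15. Plod2, the lysyl hydroxylase of the collagen telopeptides, rose from 108, 97.3 and 101 CPM in WT to 158, 174 and 174 CPM in KO (0.72 ± 0.077, SE, n = 3 and 3, adjusted p = 0.00321 by edgeR's quasi-likelihood test). Colgalt2, a galactosyltransferase of hydroxylysine, fell from 0.998, 1.33 and 1.47 CPM to 0.0955, 0.190 and 0.286 CPM, which is about the level of 3 counts (adjusted p = 0.00766 by edgeR's test). P4ha2, a prolyl hydroxylase subunit, was above WT in each KO library, with 53.2, 43.6 and 50.0 CPM in WT and 81.6, 90.5 and 134 CPM in KO (1.06 ± 0.19, SE, adjusted p = 0.0104 by edgeR's test). Serpinh1, the collagen chaperone HSP47, was at 1930, 1606 and 1838 CPM in WT and 1702, 2061 and 1441 CPM in KO.

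For crosslinking, 2 of 5 genes rose, beside 4.98% of all genes. Loxl4 rose from 32.0, 32.1 and 33.9 CPM in WT to 81.0, 82.5 and 71.7 CPM in KO (1.26 ± 0.082, SE, n = 3 and 3, adjusted p = 0.00161 by edgeR's quasi-likelihood test), and Loxl2 rose by 0.58 ± 0.096 (adjusted p = 0.00769 by the same test). Lox, the most abundant lysyl oxidase, had 1036, 983 and 937 CPM in WT and 1934, 2154 and 4899 CPM in KO, and KO3 was far above the rest (1.60 ± 0.35, SE, adjusted p = 0.0173 by edgeR's test, and 1.05 with adjusted p = 2.09e-06 without KO3). Loxl1 and Loxl3 lay below WT in every KO library. Their log2 fold changes of -0.23 each did not pass (adjusted p = 0.0755 and 0.0681 by edgeR's test). Among 15 tested rows for secretion, propeptide removal and assembly, 1 gene rose, beside 4.98% of all genes. Sparc, a collagen-binding matrix protein, rose from 2573, 2480 and 2629 CPM to 3639, 4143 and 4693 CPM (0.70 ± 0.12, SE, adjusted p = 0.00782 by edgeR's test). No gene of this list fell, and the largest differences beside it were those of Tll1, a procollagen protease (1.13 ± 0.27, SE), Lum, a fibril-binding proteoglycan (-1.13 ± 0.49, SE), and Adamts3, a procollagen N-protease (-1.11 ± 0.46, SE), which did not pass. Without KO3 these were 0.74, -0.71 and -0.70, with adjusted p = 7.14e-05, 0.000594 and 0.00926 by edgeR's test. The medians of the crosslinking and secretion lists were 0.58 and -0.068.

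Among 9 tested collagen receptors, 3 rose and 1 fell, beside 4.98% and 4.89% of all genes. Itgb1, the beta1 chain of the collagen-binding integrins, rose from 864, 839.6 and 813 CPM to 1380.1, 1522 and 1496 CPM (0.81 ± 0.078, SE, n = 3 and 3, adjusted p = 0.00279 by edgeR's quasi-likelihood test). Itga11, the fibroblast receptor for fibrillar collagen, rose by 0.61 ± 0.095 (adjusted p = 0.00679 by the same test), and Adgrg6, an adhesion receptor that binds type IV collagen, rose by 1.09 ± 0.16 (adjusted p = 0.00581 by the same test). Itga2 fell from 4.04, 4.32 and 3.80 CPM to 1.67, 0.997 and 1.29 CPM (-1.62 ± 0.26, SE, adjusted p = 0.00739 by edgeR's test). Of the machinery and receptor genes that rose or fell, Plod2, Loxl4 and Itgb1 also passed 0.01 when 1 library other than KO3 was omitted, each in at least 1 such fit, and none passed in all of these fits.

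Markers of cell types that make particular collagens were summed in each library. The 9 chondrocyte markers in the table, such as Sox9, Acan and Comp, had 72.0 to 81.8 CPM in WT, 73.7 and 78.5 CPM in KO1 and KO2 and 30.2 CPM in KO3. KO3 was the lowest library for 8 of 8 tested, beside 34% of all genes. The 7 osteoblast markers had 60.0 to 70.1 CPM in WT and 66.7, 66.3 and 41.3 CPM in KO. Of these 7, 1 member rose, beside 4.98% of all genes (Bglap, 2.45 ± 0.36, SE, n = 3 and 3, adjusted p = 0.00589 by edgeR's quasi-likelihood test). Most of this list went the other way, with 5 members below 0, 2 above 0 and a median log2 fold change of -0.85. The 7 epithelial markers had 48.8 to 52.9 CPM in WT and 43.6, 31.3 and 6.48 CPM in KO. KO3 thus stood low for these lists, as it did for most collagen genes. The 6 macrophage markers, led by Lyz2, had 41.8 to 86.1 CPM in WT, 70.5 and 43.6 CPM in KO1 and KO2 and 226 CPM in KO3. The 6 endothelial markers had 48.6 to 59.0 CPM in WT and 67.3, 54.0 and 32.3 CPM in KO, nearly all of it Tek, with Emcn, Cdh5 and Pecam1 between 0 and 0.525 CPM. The 7 fibroblast markers had 3927 to 4453 CPM in WT and 4826, 4616 and 4757 CPM in KO. Vim made up most of it. Of these 7, 1 member fell, beside 4.89% of all genes (Thy1, -1.11 ± 0.10, SE, n = 3 and 3, adjusted p = 0.00251 by edgeR's quasi-likelihood test). Pdgfra had a log2 fold change of -1.22 (adjusted p = 0.0185 by the same test). Thy1 and Pdgfra were the 2 members of this list below 0, while 5 lay above 0, and the median log2 fold change was 0.090. Mki67, a marker of cycling cells, was at 472, 439 and 412 CPM in WT and at 153, 128 and 32.5 CPM in KO. The part of these differences in the collagen values of KO3 was not tested.

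The 44 genes matched GENCODE release M21 of GRCm38 by identifier and lie on 15 chromosomes. They span 7105 bases (Col10a1) to 468377 bases, with a median of 114387.5 bases beside 22767 bases for 16486 matched genes of the table, and hold 3 to 116 merged exons. Among members that lie next to each other, Col3a1 and Col5a2 end 24614 bases apart on chromosome 1 with log2 fold changes of -0.31 and 0.70, and the 3 head-to-head type IV pairs and the Col6a4 to Col6a6 row held 1 gene that passed 0.01, which was Col6a6.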

How the data were processed

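RNA-seq of 3 WT and 3 Rnf20 knockout libraries of reprogrammable cells at day 3 was analysed, with genotype and replicate number taken from the sample labels. The authors prepared TruSeq Stranded mRNA libraries and aligned the paired reads with HISAT2 2.1.0 to the GRCm38/mm10 genome, per their methods and processing notes. They deposited raw counts per gene, whole numbers without normalization, together with gene lengths in bases. The program that counted the reads and its use of strand are not given in the sources used here. The authors also deposited FPKM values for 12633 genes, computed with Cufflinks 2.1.1, and these served only the FPKM limit of a call. Their columns of log2 fold change and adjusted p-value (FDR), which hold the authors' own comparison, were deposited in the same table and were not used.

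The counts were analysed in edgeR 4.0.16 under R 4.3.3, with filterByExpr at its defaults (13386 genes left), TMM factors and the quasi-likelihood test of genotype without covariates, adjusted over all genes by Benjamini-Hochberg. A gene rose or fell at an adjusted p under 0.01. The study's rule also asks for a log2 fold change beyond 1 in size and an FPKM above 1, read here as the mean of either genotype. The fit was tested on simulated data. Shares and ratios were compared by two-sided exact permutation tests. CPM use TMM-normalized library sizes, and CPM per kilobase divide them by the deposited gene length. At 20545442 to 21746898 counts per library, 3 counts equal 0.142 to 0.143 CPM, a floor that covers counting error only.

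Every collagen gene is named. Values in each library are given for those with an adjusted p under 0.05, the 10 highest by CPM per kilobase, the largest change in each class and the genes of the 9 partner pairs. Of each machinery and receptor list, the genes with an adjusted p under 0.01 and the 3 largest changes are named. The members, classes and gene lists were chosen with earlier results of these data known. Positions came from GENCODE M21 and upstream sequences from RefSeq (GRCm38.p6). Alternatives were RLE size factors, library totals alone, library sizes without the collagen genes, DESeq2 1.42.0, edgeR's exact test, no filter, CPM over 1 in 3 libraries, an adjusted p under 0.05, the replicate block and each library left out in turn. Voom of limma 3.58.1 with sample quality weights was added after seeing the data.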

Additional observations from a re-analysis of the deposited data

How the results depend on the processing

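The numbers of collagen genes called by the study's rule, 1 higher and 1 lower, held with RLE size factors, with library sizes computed without the collagen genes, with edgeR's exact test and with CPM over 1 in 3 libraries. The higher call became 0 with library totals alone and 0 with no filter on low counts, and was 6 at an adjusted p under 0.05 alone. The lower call became 2 at an adjusted p under 0.05 with the fold and FPKM limits, 3 at an adjusted p under 0.01 alone, 6 at an adjusted p under 0.05 alone, 2 with DESeq2 and 2 with voom and sample quality weights, which gave KO3 a weight of 0.119 and the other libraries 1.24 to 1.77. Leaving out 1 library gave 0 to 2 higher and 0 to 2 lower calls. At an adjusted p under 0.01 alone, 1 higher and 3 lower became 4 and 6 with DESeq2, 3 and 5 with the exact test and 7 and 7 with voom, beside 26.9%, 21.7% and 33.6% of all genes, and 0 to 9 higher and 0 to 7 lower with 1 library left out. The counts of 0 arose without any one of WT1, WT2, WT3, KO1 and KO2, by edgeR's quasi-likelihood test with a residual degree of freedom less, where unadjusted p-values under 0.05 were held by 6 to 7 higher and 6 to 10 lower collagen genes. The replicate block also gave 0 higher and 0 lower calls under both rules, with 0 of 13386 genes passing 0.01 and with unadjusted p-values under 0.05 for 7 higher and 8 lower collagen genes. The deviations of same-number libraries from their group means had r of -0.066, 0.037 and 0.011, and WT1 and WT2 did not correlate best with their own number. With 3 libraries per group and KO3 far from KO1 and KO2, these values cannot decide whether the numbers pair the libraries.

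Over 9 alternatives without a left-out library, 325 of 366 fold changes of single collagen genes kept their direction and side of 0.01, 21 newly passed, 4 no longer passed (all under the block) and 16 changed sign, always in genes that did not pass. The sign changed with library totals alone for Col1a1 (-0.044), Col4a1 (-0.037), Col4a5 (-0.032) and Col6a1 (-0.054), with no filter for Col6a1 (-0.0026), under the block for Col1a1 (-0.025), Col23a1 (-0.34), Col2a1 (-0.075) and Col4a6 (0.027), with voom for Col23a1 (-1.14), Col4a2 (0.097), Col4a6 (0.049) and Col9a1 (0.28), and for Col4a6 with RLE (0.0062), DESeq2 (0.0062) and the CPM filter (0.0010). The cause was not tested. With 1 library left out, 23 of 246 fold changes changed sign, over ranges of -0.089 to 0.60 for Col14a1, -0.20 to 0.22 for Col1a1, -1.21 to 0.54 for Col23a1, -0.58 to 0.097 for Col24a1, -0.32 to 0.51 for Col2a1, -0.72 to 0.058 for Col3a1, -0.093 to 0.15 for Col4a1, -0.22 to 0.12 for Col4a2, -0.037 to 0.13 for Col4a5, -0.20 to 0.13 for Col4a6, -0.043 to 0.056 for Col6a1 and -0.71 to 0.42 for Col9a1. The differences in share of counts ranged from -0.88 to 0.26 percentage points for all collagen genes, -0.67 to 0.28 for the fibrillar, -0.039 to 0.016 for the basement membrane and -0.0020 to 0.012 for the other class, and the log2 ratios from -0.097 to 0.15 for Col4a5 to Col4a6 and -0.061 to 0.23 for Col11a1 to Col5a1. The beaded and FACIT shares stayed lower in KO in each of these (-0.096 to -0.029 and -0.084 to -0.024).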
